A study of Mus musculus with 18 samples.

Results

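The 6 larynx libraries of smoke-exposed mice fell into 2 sets of 3 by their content of Pth, the parathyroid hormone transcript. The sets were chosen by that transcript alone: Pth had to lie above 100 CPM (a gene's count per 1 M counts of its library) or below 10 CPM. Smoke libraries 2, 4 and 5 had 2204, 1053 and 717 CPM of Pth, and smoke libraries 1, 3 and 6 had 0.126, 0.0555 and 5.58 CPM. The values nearest the limits were therefore 717 CPM and 5.58 CPM, and no smoke library lay between the limits. The 6 libraries are among 18 in the series, and each gene was compared 3 against 3 over all genes in the table.

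All mice were male C57BL6/J, 8 to 9 weeks old, with no genetic change named in the labels. For 4 weeks they spent 1 hour a day, 5 days a week, in a whole-body inhalation chamber. The 3 groups of 6 libraries breathed smoke of the 3R4F research cigarette, aerosol of the JUUL Virginia tobacco e-cigarette, or room air. RNA came from the whole larynx, the cartilage-framed organ that joins the throat to the windpipe. Libraries held 16.2 to 20.3 M counts in smoke 2, 4 and 5, and 15.9 to 18.0 M counts in smoke 1, 3 and 6. The e-cigarette group had 16.7 to 22.5 M counts a library, and the air group 15.6 to 17.1 M.

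The parathyroid glands are small endocrine glands that lie on or in the thyroid lobes, beside the larynx. Their chief cells sense blood calcium through the calcium-sensing receptor Casr and release parathyroid hormone when calcium falls, which raises calcium through bone and kidney. The transcription factor Gcm2 is required for the glands to form and is the defining marker of their cells, Chga encodes the granule protein chromogranin A, and Kl encodes Klotho, the co-receptor through which the hormone FGF23 acts on the parathyroid and the kidney. A bulk library cannot separate the number of such cells from the RNA in each: fewer cells of a type and less RNA per cell cannot be told apart.

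The other 3 markers of the gland split the smoke libraries the same way as Pth, Gcm2 and Chga by more than Casr. Gcm2 had 20.9, 11.3 and 8.77 CPM in smoke 2, 4 and 5, against 0, 0 and 0.228 CPM in smoke 1, 3 and 6. Chga had 1455, 812 and 703 CPM in smoke 2, 4 and 5, against 16.6, 15.8 and 14.7 CPM in smoke 1, 3 and 6. Casr had 34.2, 18.0 and 24.3 CPM in smoke 2, 4 and 5, against 9.26, 6.78 and 7.74 CPM in smoke 1, 3 and 6. The rule separated Pth, and the other 3 markers did not overlap between the sets either, which held for 9.16% of 16060 genes compared. In smoke 1, 3 and 6, Chga and Casr kept 6.78 CPM or more, while Gcm2 was nearly absent and Pth reached 5.58 CPM in smoke 6.

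Over all genes, few others separated the sets this far. A gene was counted when its mean reached 1 CPM in at least 1 set, and was called past the fold when the ratio of set means, each with 0.1 CPM added, was at least 4-fold and the 3 libraries of each set did not overlap. Of 16060 genes that entered, 14 were higher in smoke 2, 4 and 5 (0.0872%) and 1 was lower (0.00623%). The libraries were chosen by Pth, so these counts are a description with no test. The median log2 ratio over the 16060 genes was 0.01, and 1471 of them (9.16%) had sets that did not overlap at any size of difference.

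**Figure D1:**
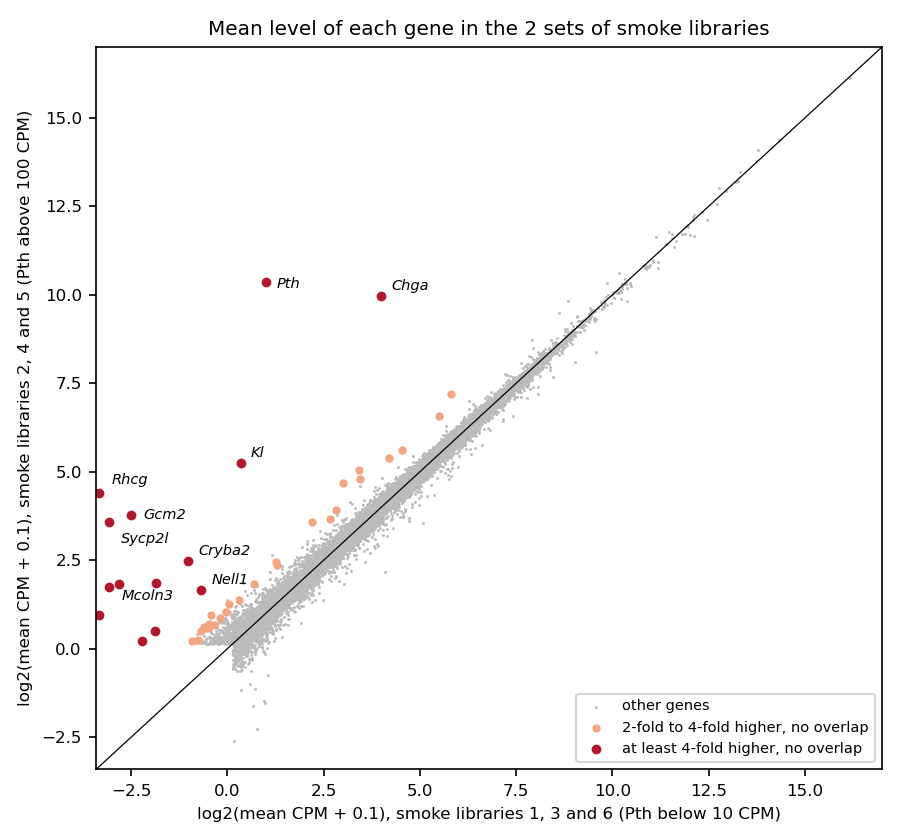
Mean level of 16060 genes in smoke libraries 2, 4 and 5 (vertical axis) against smoke libraries 1, 3 and 6 (horizontal axis), both as log2(mean CPM + 0.1), with the line of equal levels. The 14 genes at least 4-fold higher without overlap lie far above the line, led by Pth and Chga among abundant transcripts, and 25 genes lie between 2-fold and 4-fold.

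Of the 14 genes, 12 were protein coding: Pth, Rhcg, Sycp2l, Gcm2, Chga, Kl, Mcoln3, Spink8, Cryba2, Cdh20, Lama1 and Nell1. The other 2, the lincRNA Gm48510 and the unclassified transcript Gm45170, fell outside the naming rule and were singled out after their values were seen. Together the 14 genes took 0.381%, 0.196% and 0.149% of all counts in smoke 2, 4 and 5. In smoke 1, 3 and 6 they took 0.00194%, 0.00184% and 0.00231%. The share was under 1% even where the transcripts were abundant, and highest in smoke 2.

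Pth itself gave 71965 counts in smoke 2, 4 and 5 together and 101 in smoke 1, 3 and 6, of which smoke 6 supplied 98. The ratio of pooled counts, scaled to library totals, was 677, with an exact 95% counting interval of 557 to 831 that covers counting error only. Pth lies on chromosome 7 at 113385580-113388570 on the minus strand (GRCm38, as deposited). The 250 bases before the RefSeq starts of Pth and of Chga are shown because these were the 2 most abundant of the 14 transcripts, and because each window held a match to a motif that was searched. Capitals mark those matches.
Pth, chr7:113388574-113388823, minus strand: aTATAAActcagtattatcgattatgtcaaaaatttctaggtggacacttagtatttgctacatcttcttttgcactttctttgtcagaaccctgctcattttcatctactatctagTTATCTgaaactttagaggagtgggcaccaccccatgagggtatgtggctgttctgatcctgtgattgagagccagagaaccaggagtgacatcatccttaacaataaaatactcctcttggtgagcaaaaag
Chga, chr12:102554691-102554940, plus strand: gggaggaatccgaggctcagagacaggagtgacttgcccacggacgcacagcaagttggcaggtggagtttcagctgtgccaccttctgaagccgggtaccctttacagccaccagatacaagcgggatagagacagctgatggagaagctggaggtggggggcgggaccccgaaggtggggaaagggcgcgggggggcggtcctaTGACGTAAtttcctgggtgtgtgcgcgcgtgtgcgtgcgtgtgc
Both sequences are from RefSeq on GRCm38.p6. Motifs were searched on both strands in these windows, of which RefSeq supplied 1 for 10 of the 14 genes and 32851 in all. The Pth window held TATAAA, which occurred in 12.4% of all windows, starting 249 bases before the start, and on the other strand AGATAA (read here as TTATCT), which occurred in 9.99% of windows, 133 bases before the start. The Chga window held TGACGTAA, a form of the cAMP response element found in 0.447% of windows, 44 bases before the start. The Gcm2 window also held AGATAA. The palindromic cAMP response element TGACGTCA (1.55% of windows) and ATGCGGGT, the consensus of GCM proteins (0.207% of windows), were in none of the 10 windows. The matches do not overlap each other, and a match is a run of letters rather than a known site.

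Regulators of parathyroid identity and of Pth transcription differed in how far they split. Gata3 encodes a transcription factor that acts with Gcm2 on the Pth gene. Gata3 had 6.33, 4.73 and 5.12 CPM in smoke 2, 4 and 5, against 2.02, 1.83 and 3.02 CPM in smoke 1, 3 and 6, a log2 ratio of 1.20 with no overlap. Vdr, the vitamin D receptor that represses Pth, had 31.6, 23.7 and 29.0 CPM in smoke 2, 4 and 5, against 12.4, 18.9 and 16.9 CPM in smoke 1, 3 and 6. Its log2 ratio was 0.80 with no overlap, which is short of 2-fold. Men1, a tumour suppressor lost in familial parathyroid tumours, had a log2 ratio of -0.06, and Pth1r, the receptor for the hormone in its target tissues, one of 0.31; the sets overlapped for both.

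Rhcg, Kl and Mcoln3 encode membrane proteins. Rhcg, an ammonia channel best known from the kidney collecting duct, had 28.2, 20.4 and 14.7 CPM in smoke 2, 4 and 5, and no count in smoke 1, 3 and 6. Against a floor of 3 counts over the set, its pooled ratio was at least 365-fold higher. Kl had 52.7, 35.8 and 25.4 CPM in smoke 2, 4 and 5, against 1.32, 1.33 and 0.854 CPM in smoke 1, 3 and 6. Mcoln3, a cation channel of endosomes and lysosomes, had 4.81, 2.51 and 2.41 CPM in smoke 2, 4 and 5, and 0, 0.0555 and 0 CPM in smoke 1, 3 and 6. That last set held 1 count of Mcoln3, and the pooled ratio of 166 had a counting interval of 29.4 to 6600. Rhcg, Kl and Mcoln3 were each highest in smoke 2, the library with the most Pth.

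Sycp2l, which encodes a relative of a synaptonemal complex protein known from oocytes, had 17.8, 10.2 and 7.78 CPM in smoke 2, 4 and 5. It had 0, 0.0555 and 0 CPM in smoke 1, 3 and 6, again 1 count. Spink8, of the Kazal family of serine protease inhibitors, had 4.98, 3.00 and 2.53 CPM in smoke 2, 4 and 5, against 0.189, 0.167 and 0.171 CPM in smoke 1, 3 and 6. Cryba2, a beta crystallin, had 9.33, 3.94 and 3.03 CPM in smoke 2, 4 and 5, against 0.504, 0.389 and 0.285 CPM in smoke 1, 3 and 6. These 3 genes followed the order of Pth within smoke 2, 4 and 5.

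Cdh20, a cadherin of cell adhesion, Lama1, a laminin chain of basement membranes, and Nell1, a secreted protein known from bone formation, lay closest to the 4-fold limit. Their log2 ratios were 2.45, 2.38 and 2.34. Nell1 had 5.20, 2.27 and 1.67 CPM in smoke 2, 4 and 5, against 0.378, 0.389 and 0.797 CPM in smoke 1, 3 and 6. Lama1 rested on 73 counts in smoke 2, 4 and 5 and 9 in smoke 1, 3 and 6, and Cdh20 on 59 and 6. The last gene inside the limit was Nell1 at a log2 ratio of 2.34 and the first outside was Casr at 1.67. With 1 CPM in place of 0.1 CPM added to the means, 9 genes rather than 14 were past the fold.

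**Figure D2:**
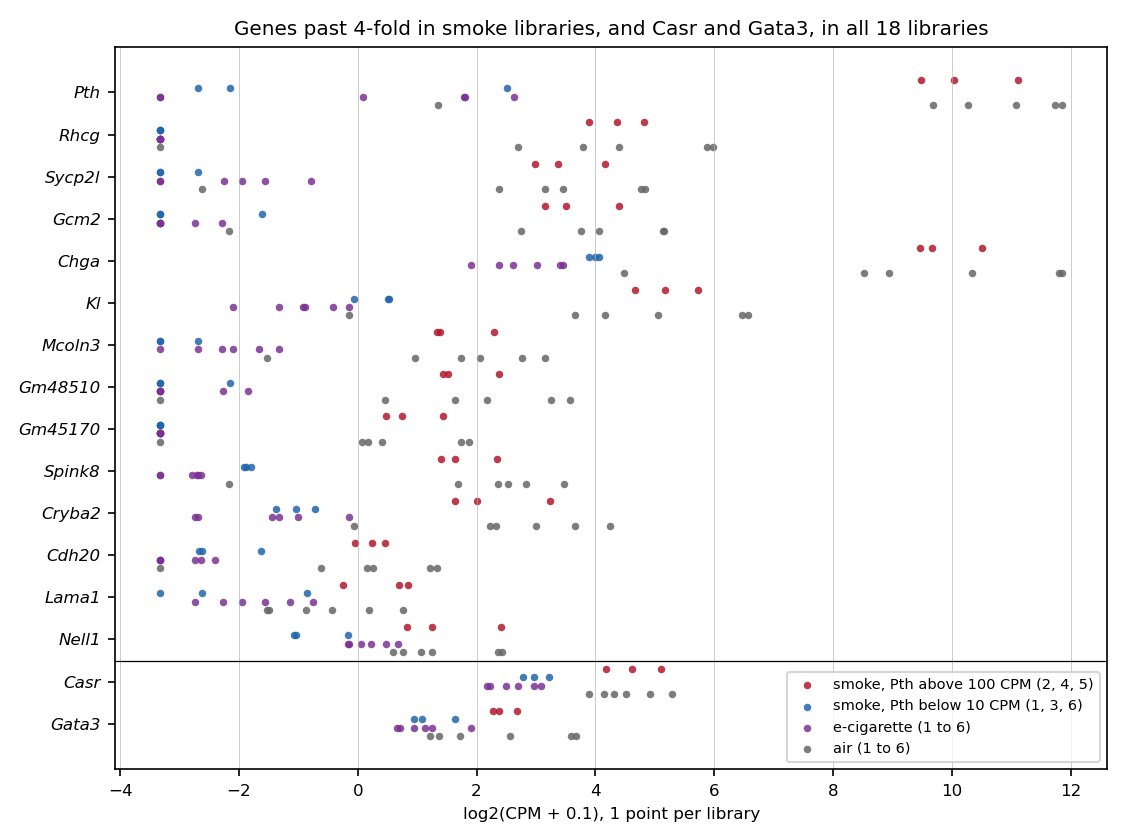
Level of the 14 genes, and below the line of Casr and Gata3, as log2(CPM + 0.1) with 1 point per library; red points are smoke 2, 4 and 5, blue smoke 1, 3 and 6, purple the 6 e-cigarette and grey the 6 air libraries. Red and blue points do not overlap for any gene drawn, and for Pth a single grey point, air 4 at 2.47 CPM, lies among the low libraries.

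Per kilobase of gene length, the mean level in smoke 2, 4 and 5 was 1866 CPM for Pth and 359 CPM for Chga. Rhcg followed at 9.46 CPM per kilobase and Casr at 5.41. Cryba2, Spink8, Sycp2l, Gcm2 and Kl lay between 4.07 and 4.55 CPM per kilobase, and Mcoln3 at 0.935. On this scale the hormone and the granule protein stood apart from the receptor, the transcription factor and the rest.

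Several of the 14 genes were neighbours in the genome. Gcm2 (chromosome 13, 41101427-41111035, minus strand) and Sycp2l (41114307-41174351, plus strand) are 3271 bases apart, and Gm48510 (41176888-41179030, plus strand) begins 2536 bases beyond Sycp2l. These were 3 of the 10 genes that entered within 200 kb of Gcm2; Mak and Elovl2, which flank them, had log2 ratios of 0.08 and 0.22. Gm48510 had 5.09, 2.76 and 2.59 CPM in smoke 2, 4 and 5, and 0.126, 0 and 0 CPM in smoke 1, 3 and 6. Gm45170 lies inside Rhcg on the same strand (chromosome 7, 79602006-79603676 within 79593363-79617657), so its reads cannot be told apart from those of Rhcg. Around Pth, by contrast, Pth was the sole gene past the fold among the 4 that entered within 200 kb.

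Between 2-fold and 4-fold there were 25 further genes with no overlap, 20 of them protein coding. That makes 39 genes at least 2-fold higher (0.243%) and 4 at least 2-fold lower (0.0249%). Apart from Casr and Gata3, the genes named from this range were chosen after their values were seen. Rapgef5, an exchange factor for small GTPases, had 36.7, 31.8 and 30.8 CPM in smoke 2, 4 and 5, against 10.1, 12.1 and 9.28 CPM in smoke 1, 3 and 6. Ints6l, related to a subunit of the Integrator complex, had 197, 133 and 111 CPM in smoke 2, 4 and 5, against 57.2, 57.8 and 53.6 CPM in smoke 1, 3 and 6. Tnmd, known from tendon, and Tspan6, a tetraspanin, are neighbours on chromosome X with 25490 bases between them, and had log2 ratios of 1.35 and 1.18. Myh10, a nonmuscle myosin heavy chain, had 94.5, 85.1 and 104 CPM in smoke 2, 4 and 5, against 36.9, 54.1 and 44.9 CPM in smoke 1, 3 and 6. The 5 transcripts named here were at 7.88 CPM or more in every smoke library, which among the 14 genes held for Chga alone.

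Few of the listed genes took part in the split. Of 19 parathyroid identity genes that entered, 5 were past 4-fold (Pth, Gcm2, Chga, Kl and Rhcg) and 7 were past 2-fold (with Casr and Gata3). Both counts include Pth, which the rule itself placed there. Over all genes, 0.0872% were past 4-fold higher and 0.243% past 2-fold higher. The median log2 ratio of the list was 0.31. The developmental regulators on that list, which pharyngeal and muscle tissue also uses, had nearly equal levels: Pax9 had a log2 ratio of 0.06 and Eya1 one of 0.14. Among 22 genes of calcium-sensing receptor signalling, Casr alone was past 2-fold, and its G proteins Gnaq and Gna11 had log2 ratios of 0.22 and 0.05. The lists were chosen with earlier results of these data known, and list genes outside the naming rule were picked as examples after their values were seen.

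Chga was also the sole gene past 2-fold among 34 genes of peptide hormone granules, whose median log2 ratio was 0.04. Chgb, the sister granin, had 16.6, 16.0 and 16.5 CPM in smoke 2, 4 and 5, against 15.8, 19.5 and 16.2 CPM in smoke 1, 3 and 6. Scg2, another granin, had 170, 176 and 172 CPM in smoke 2, 4 and 5, against 164, 208 and 155 CPM in smoke 1, 3 and 6. The prohormone convertases Pcsk1 and Pcsk2 had log2 ratios of 0.08 and 0.09. The granule transcripts other than Chga thus had overlapping sets in these named cases, at levels well above 0 in all 6 smoke libraries.

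The neighbouring tissues that such a dissection could hold overlapped in level between the sets. Thyroglobulin (Tg), the thyroid hormone precursor, took 5.90%, 6.47% and 9.24% of counts in smoke 2, 4 and 5, against 7.42%, 8.90% and 5.87% in smoke 1, 3 and 6. Calca, the calcitonin gene of thyroid C cells, had 1446, 1087 and 809 CPM in smoke 2, 4 and 5, against 1378, 1105 and 934 CPM in smoke 1, 3 and 6. The summed level of 18 thyroid follicle genes ranged over 60730 to 94200 CPM in smoke 2, 4 and 5 and 60150 to 91310 CPM in smoke 1, 3 and 6. Smoke libraries with Pth below 10 CPM were therefore not libraries without thyroid, and neither thyroid list had a gene past 2-fold.

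Other lists gave no gene past 4-fold. For thymus, which shares its embryonic pouch with the parathyroid, Foxn1 had 2.43, 1.48 and 1.91 CPM in smoke 2, 4 and 5, against 1.70, 2.06 and 3.36 CPM in smoke 1, 3 and 6. Of 18 cartilage genes 17 had a log2 ratio above 0 (median 0.20), and of 18 squamous epithelium genes 1 did (median -0.31), against 8477 of all 16060 genes. On neither list did any gene have sets without overlap, against 9.16% of all genes. Genes of 1 list need not vary independently, and no test was made. Acan, the cartilage proteoglycan, had 51.9, 102 and 250 CPM in smoke 2, 4 and 5, against 58.2, 136 and 116 CPM in smoke 1, 3 and 6. Lipf, a lipase that was abundant in these larynges, had 17279, 21139 and 13656 CPM in smoke 2, 4 and 5, against 10459, 14177 and 17606 CPM in smoke 1, 3 and 6. Adipoq, of fat cells, had a log2 ratio of 0.04, and Lep, the adipocyte hormone leptin, was past 2-fold at 1.02.

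Of 11 targets of the aryl hydrocarbon receptor, a sensor of smoke constituents, 1 had sets without overlap, and of 18 heat shock genes 5 did, against 9.16% of all genes; none of these reached 2-fold. The 5 heat shock genes were Hspa1a, Hsph1, Hsp90aa1, Hspa4l and Chordc1, each higher in smoke 2, 4 and 5, with log2 ratios of 0.15 to 0.29. Cyp1a1, the cytochrome induced by the aryl hydrocarbon receptor, had 3.39, 2.66 and 4.14 CPM in smoke 2, 4 and 5, against 2.52, 2.22 and 3.07 CPM in smoke 1, 3 and 6. Ahrr, the repressor of that receptor, had 0.622, 1.33 and 1.54 CPM in smoke 2, 4 and 5, against 1.39, 0.722 and 1.20 CPM in smoke 1, 3 and 6. The sets overlapped for Cyp1a1 and for Ahrr. Mitochondrial transcripts took 4.76% to 5.19% of counts in smoke 2, 4 and 5 and 4.66% to 5.16% in smoke 1, 3 and 6.

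**Figure D3:**
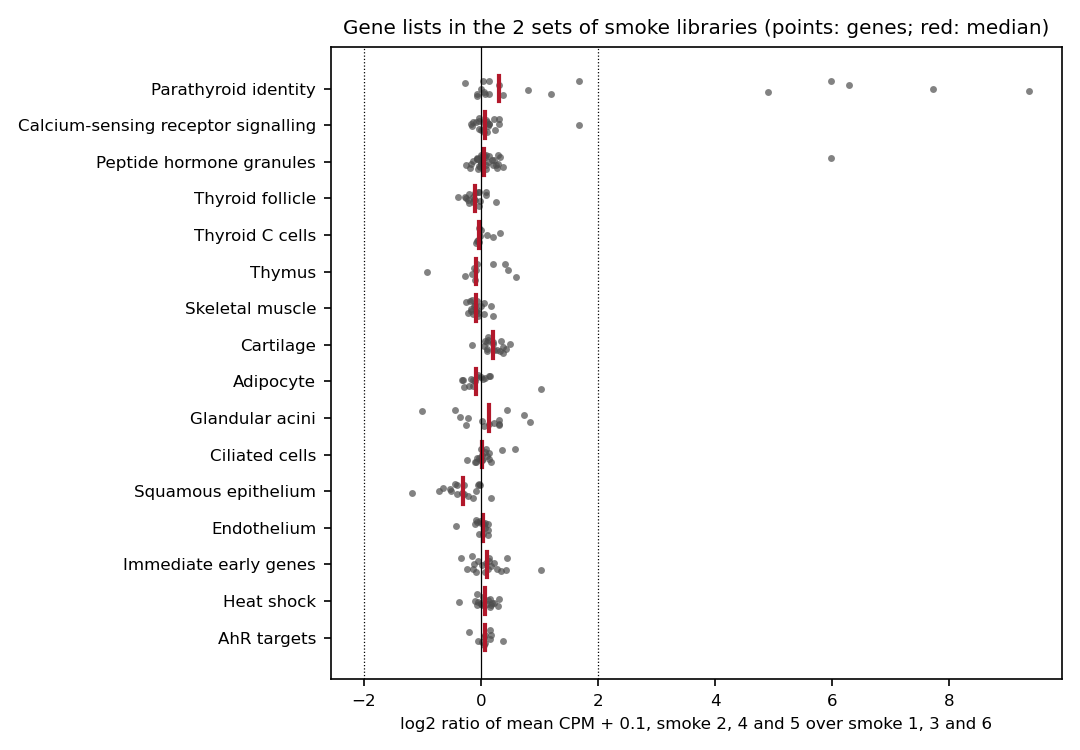
Log2 ratio of mean CPM + 0.1 in smoke 2, 4 and 5 over smoke 1, 3 and 6 for the genes of 16 lists, 1 point per gene, with the median in red, a solid line at 0 and dotted lines at 4-fold either way (points are spread vertically for sight only). Points past the dotted line occur on the parathyroid identity list (5 genes) and, as Chga again, on the peptide hormone granule list.

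The air libraries, which played no part in choosing the sets, gave a separate look at the same genes. Pth had 1240, 3696, 3418, 2.47, 2168 and 817 CPM in air 1 to 6, so that air 4 stood where smoke 1, 3 and 6 did. The 13 genes other than Pth were each lowest of the 6 air libraries in air 4, which held for 13 of 13, against 9.33% of all 16060 genes. For Lama1 and Nell1 the gap was small: 0.247 CPM in air 4 against 0.254 CPM in air 6, and 1.42 CPM against 1.59 CPM. Lama1 had 4 counts in air 4 and 4 in air 6. The 13 include Rhcg and Gm45170, whose reads cannot be told apart. Gcm2 had 0.123 CPM in air 4, against 6.61 to 35.6 CPM in the other 5 air libraries, and Rhcg had 0 CPM against 6.36 to 63.2 CPM. Air 4 held no less thyroid: Tg took 10.2% of its counts, against 6.13% to 9.93% in the other 5.

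Each gene was then fitted against log2(Pth CPM + 1) over the 6 air libraries with edgeR's quasi-likelihood test, Benjamini-Hochberg adjusted over 17682 genes. No gene was called at an adjusted p under 0.05 (0%), and 355 (2.01%) had an unadjusted p under 0.05. DESeq2 on the same libraries called 18 genes (0.102%), 10 of them among the 13. All 13 slopes lay above 0, with a median of 0.71 log2 units per log2 unit of Pth, against a median of 0.00 and 52.7% above 0 over all genes; 11 of the 13 had an unadjusted p under 0.05. Of the 10 smallest p-values, 9 belonged to the 13 genes, and Klk1b22, a kallikrein named here after its values were seen, held the other place. Rhcg and Gm45170 are both among the 9 and share reads that cannot be told apart, so these counts are not all of separate signals. Sycp2l had a slope of 0.95 (SE 0.10) and Gcm2 one of 0.86 (SE 0.09), both at an adjusted p of 0.0575 with edgeR.

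The slopes were of unequal size. Rhcg had a slope of 1.36 (SE 0.16, adjusted p 0.18 with edgeR), Chga one of 0.71 (SE 0.15, adjusted p 1) and Kl one of 0.69 (SE 0.14, adjusted p 1). The 2 tools differed here: DESeq2 gave slopes of 1.29, 0.71 and 0.66, with adjusted p of 1.05e-09, 2.46e-05 and 1.23e-05. Cdh20, Lama1 and Nell1 were those of the 13 that DESeq2 did not call. Lama1 and Nell1 had the smallest slopes of the 13, at 0.21 and 0.17. Casr had a slope of 0.11, and was at 14.7 CPM in air 4 against 17.7 to 39.0 CPM in the other 5 air libraries. Of the 25 genes between 2-fold and 4-fold, 18 had slopes above 0 (median 0.08) and 8 an unadjusted p under 0.05, among them Tspan6 at 0.21 (SE 0.04) and Tnmd at 0.24 (SE 0.05).

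Single air libraries decided part of this. Without air 4, the library with little Pth, no gene was called by edgeR (0%); the slope of Gcm2 was then 1.03 (SE 0.22), that of Chga 1.37 (SE 0.44), that of Kl 1.24 (SE 0.34) and that of Nell1 0.83 (SE 0.25). The slopes of Chga, Kl and Nell1 were then over 1.5 times as large, as were those of Cryba2 (0.93), Mcoln3 (0.97), Lama1 (0.63), Casr (0.41), Tspan6 (0.60) and Tnmd (0.77). Those of Gcm2, Rhcg (1.37), Cdh20 (0.79), Spink8 (0.72), Sycp2l (1.10), Gm48510 (1.24) and Gm45170 (0.93) moved by less. Without air 1, 4 genes were called (0.0228%), and without air 5 also 4 (0.0229%), in both cases all among the 13. The air libraries also differed in other tissue: Lipf had 3423, 704 and 1271 CPM in air 4, 5 and 6, against 13867 to 21974 CPM in air 1, 2 and 3, and Acan 18.6, 6.88 and 7.63 CPM against 76.0 to 144 CPM. The part of that difference in the slopes was not tested.

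**Figure D4:**
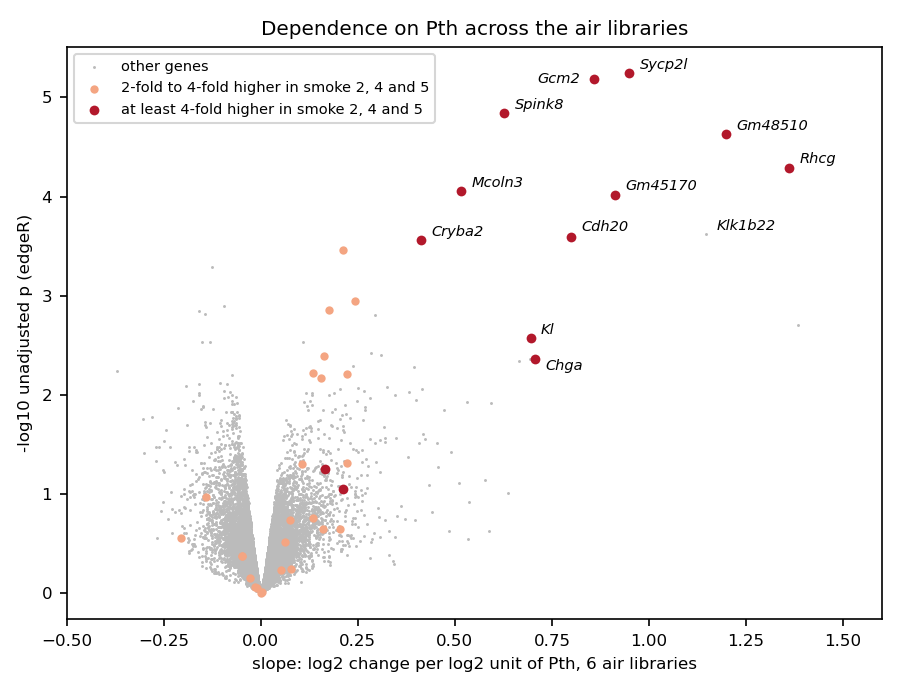
Slope of each of 17682 genes against log2(Pth CPM + 1) over the 6 air libraries (horizontal axis, log2 change per log2 unit of Pth) and -log10 of the unadjusted edgeR p (vertical axis). The 13 genes past 4-fold in the smoke libraries (red) all have slopes above 0, and 9 of them are among the 10 smallest p-values; none passed an adjusted p of 0.05.

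Pth was above 100 CPM in 8 of the smoke and air libraries, 3 of smoke and 5 of air. Relative to Pth, the levels of Chga, Kl and Gcm2 spanned a narrower range in the 3 smoke libraries than in the 5 air libraries. A range tends to widen with the number of libraries. Mcoln3 went the other way, with a highest over lowest value of 1.54 in smoke and 1.40 in air. Per 1000 counts of Pth, Chga had 660, 771 and 981 counts in smoke 2, 4 and 5, against 1046, 1001, 1052, 226 and 448 counts in air 1, 2, 3, 5 and 6. Kl had 23.9 to 35.4 counts in the 3 smoke libraries and 8.22 to 26.7 counts in the 5 air libraries. In air 1, 2 and 3 Kl had 26.7, 25.7 and 25.9 counts, so for Chga and Kl the wider air range came from air 5 and 6. Gcm2 had 9.49 to 12.2 counts in smoke and 6.23 to 13.4 counts in air. Air 5 and 6 were the lowest of the 8 for Chga, Kl, Rhcg, Gcm2 and Sycp2l, while Cryba2 had its highest value, 5.99, in air 6. Pth is the denominator of every ratio, so the ratios of 1 library are not independent, and no test was made.

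**Figure D5:**
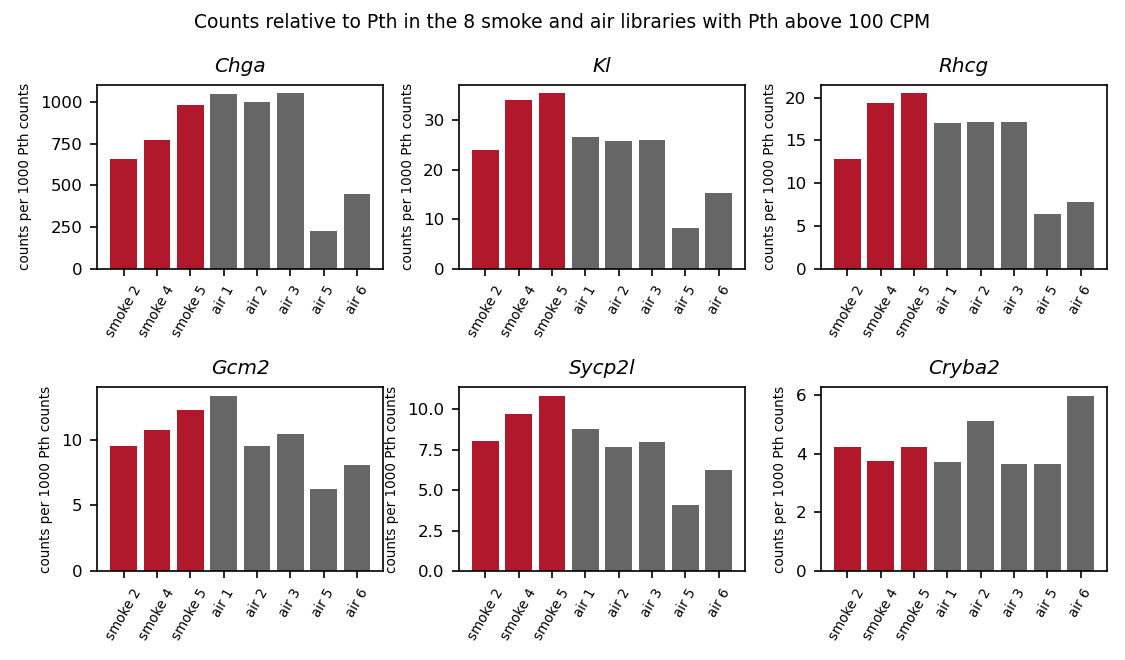
Counts of 6 genes per 1000 counts of Pth (bars from 0, 1 bar per library) in smoke 2, 4 and 5 (red) and air 1, 2, 3, 5 and 6 (grey), the 8 libraries with Pth above 100 CPM. Air 5 is the lowest bar for Chga (226), Kl (8.22), Gcm2 (6.23), Rhcg and Sycp2l.

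The e-cigarette libraries, also unused in the choice, all lay on the low side. Pth had 6.12, 0.958, 3.38, 0, 0 and 3.38 CPM in e-cigarette 1 to 6, against 2.47 to 3696 CPM (median 1704) in air. Rhcg and Gm45170 had no count in any e-cigarette library, and Gcm2 had 0 to 0.106 CPM (median 0), against 0.123 to 35.6 CPM (median 15.0) in air. Chga had 3.64 to 10.9 CPM (median 7.01) in the e-cigarette libraries, against 22.1 to 3699 CPM (median 894) in air. Libraries with Pth above 100 CPM thus numbered 0 of 6 in the e-cigarette group, 3 of 6 in the smoke group and 5 of 6 in the air group.

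In the e-cigarette against air comparison with edgeR, 3607 of 16992 genes were called (21.2%), 1920 of them lower (11.3%). Of the 14 genes, 5 passed the filter on low counts and all 5 were called lower; a gene nearly absent from 1 group passes such a filter through the other, so the count is not support. Pth fell by 9.64 on the log2 scale (SE 1.65, adjusted p 0.00242), Chga by 7.74 (SE 1.19, adjusted p 0.00138) and Kl by 6.45 (SE 1.09, adjusted p 0.00228). Cryba2 fell by 4.64 (adjusted p 0.0012) and Nell1 by 1.41 (adjusted p 0.0158). The other 9 did not pass the filter, which asks for a minimum level in 6 libraries. Without air 4, 12 of the 14 were tested and all 12 were called lower (10% of all genes tested). This count is not support either. The genes it adds pass the filter through the air group, and the library left out is the air library with little Pth. Casr fell by 1.90 (SE 0.26, adjusted p 3.7e-04) and Vdr by 1.37 (adjusted p 0.0133).

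Thyroid content moved with this comparison. Tg took 2.69%, 0.0729%, 2.77%, 0.00854%, 0.00795% and 0.271% of counts in e-cigarette 1 to 6, against 6.13% to 10.2% in air, and Calca had 2.15 to 234 CPM in the e-cigarette libraries, against 1227 to 3187 CPM in air. In e-cigarette 1 and 3, where Tg was above 1%, Pth was still at 6.12 and 3.38 CPM. With those 2 e-cigarette libraries alone against the 6 air libraries, a comparison added after the data were seen, 360 genes were called (2%) and none of the 14; Pth had a log2 change of -8.62 (SE 2.71) at an adjusted p of 0.174 with edgeR. The part of thyroid content in the e-cigarette result was otherwise not tested.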

How the data were processed

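The deposited table holds raw counts per gene and library for 18 mouse larynx libraries. Per the labels' protocols, a column kit gave whole-larynx RNA, and NEBNext Ultra RNA libraries were made from 1 µg each. The submitters' processing notes name STAR, featureCounts 1.5.0-p3, GRCm38 and mm10. Strand setting and annotation release were not given in the sources used here, so reads of overlapping or antisense genes cannot be told apart. The table lists 54532 genes, 35370 with a count. Whether a library is 1 animal is not said, and p-values then cover no more than the spread among these samples, which may be technical. No 2 libraries of a group agreed within sampling noise.

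CPM are counts per 1 M of the column sum. The 2 sets of smoke libraries were defined by Pth, so they were described and not tested. Air and e-cigarette libraries were fitted in edgeR 4.0.16 (R 4.3.3, TMM, filterByExpr with minimum count 10 and minimum total 15, robust quasi-likelihood, Benjamini-Hochberg adjusted p under 0.05). Both fits were also run on simulated counts with the same spread for every gene and no difference in tissue content. That run checks the steps of the fits, not their error rate in these libraries. "Fell" means an adjusted p under 0.05. Named genes were the protein-coding genes past the fold, up to 24 higher and 6 lower, without Gm or Rik symbols, plus 19 fixed genes, of which 1 is not reported here; others are said to be singled out. Alternatives were DESeq2 1.42.0, other scalings, filters and prior counts, a block for replicate number, and leaving out each library. The libraries, genes and lists were chosen with earlier results of these data known.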

Additional observations from a re-analysis of the deposited data

Results flagged for a closer look

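Among 37 genes checked in the 3 groups of 6 libraries, 111 checks in all, 3 had a library far from the other 5. Chance gives about 1 in 20, and the checks are not independent of each other, so nothing is concluded from the number of flags. Gata3 had 3.649 CPM in e-cigarette 6, against 1.49 to 2.28 CPM in the other 5 e-cigarette libraries. Cyp1a1 had 1.024 CPM in e-cigarette 6, against 0.692 to 0.795 CPM in the other 5. Kansl1l, one of the genes between 2-fold and 4-fold, had 39.19 CPM in e-cigarette 5, against 25.03 to 29.59 CPM in the other 5.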

How the results depend on the processing

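In the smoke libraries, 14 genes were higher and 1 lower past 4-fold, and TMM or DESeq2 scaling gave the same counts. With 1 CPM added the counts were 9 and 0, at 2-fold 39 and 4, with a mean of at least 5 CPM 7 and 0, and with no minimum level 20 and 5. Leaving out each smoke library gave 13 to 16 higher, 13 or 14 of them among the 14 genes, and 1 to 8 lower: 6 without smoke 3 and 8 without smoke 4. Along Pth in the air libraries, 0 genes were called, with RLE factors or another prior also 0; with no filter 13 were called (0.0411%; 8 of the 13 genes), with DESeq2 18 (10 of the 13), and leaving out each air library gave 0 to 4, with 0 to 4 of the 13. Of the named genes, 5 changed the sign of their slope when 1 air library was left out, with no call: Pth1r ranged over -0.3 (without air 4; -0.004 without air 1) to 0.031, Foxn1 over -0.022 (without air 2; -0.003 without air 3) to 0.335, Cyp1a1 over -0.022 (without air 3) to 0.385, Slc5a5 over -0.042 to 0.185 (without air 4), and Calca over -0.145 (without air 4) to 0.052. In e-cigarette against air, 3607 genes and 5 of the 14 were called. With no filter 11 of the 14 were called (4.94% of all genes lower), leaving out each library gave 2762 to 3565 genes and 5 to 12 of the 14, and e-cigarette 1 and 3 alone gave 360 genes and 0 of the 14. Fewer genes of the 14 were tested where the filter asked for 6 libraries. A gene nearly absent from 1 group passes a filter through the other, so the filtered counts of the 14 are not support. The replicate block gave 2302 genes (6.94% lower) and 13 of the 14. Same-numbered e-cigarette and air libraries correlated at -0.314 to -0.0218, which gave no sign of pairing. Libraries of a group also differed in tissue content, so these correlations cannot decide whether equal numbers were paired. Except where stated, the cause was not tested. With 3 libraries a set, genes of few counts such as Cdh20 limit what the depth can show.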

Other observations

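The gene past 4-fold lower in smoke 2, 4 and 5, singled out after its values were seen, was Gm13394, with 0.283, 0.197 and 0.309 CPM there, against 4.41, 0.4998 and 0.569 CPM in smoke 1, 3 and 6, so that smoke 1 alone was high. Past 2-fold lower, also singled out, were Gm43034, Chrna4, a nicotinic receptor subunit, and Msc, a transcription factor. Chrna4 had 0.679, 0.542 and 0.432 CPM in smoke 2, 4 and 5, against 1.07, 1.78 and 1.42 CPM in smoke 1, 3 and 6.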
